A study of Mus musculus with 30 samples.

Results

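The genes described here encode the enzymes that turn arachidonic acid into prostaglandins and leukotrienes, and the lipoxygenases of the skin. The 10 members are Ptgs1, Ptgs2, Ptges, Hpgd, Alox5, Alox5ap, Alox12, Alox12b, Aloxe3 and Alox15, and every probe set whose gene symbol is a member was taken, 16 of 45037 probe sets. They were followed in shaved back skin of female 129–C57BL/6 mice, 8 to 12 weeks old, that were wild type (WT) or deficient in D6, an atypical chemokine receptor that takes up and degrades inflammatory CC chemokines. TPA, a phorbol ester that inflames skin, was applied 3 times at 50 µM, 24 h apart, and skin was collected on days 1, 2, 4 and 6 thereafter. Day 0 is the control skin of each genotype, which received acetone according to the methods and is called untreated in part of the labels. There were thus 10 groups, each of 3 mice with 1 Affymetrix array per mouse, or 30 arrays. The D6 null mice lack the receptor in every tissue, and the RNA is that of whole skin, so that fewer cells of a type and less RNA per cell cannot be told apart.

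Cyclooxygenases, encoded by Ptgs1 and Ptgs2, make the common prostaglandin precursor, which the microsomal synthase Ptges turns into prostaglandin E, and the dehydrogenase Hpgd begins the breakdown of that product. Alox5, with the membrane protein Alox5ap that presents arachidonic acid to it, opens the leukotriene pathway in myeloid cells. Alox12b and Aloxe3 act in sequence on the linoleate of epidermal ceramides and are required for the water barrier, whereas Alox12 is found in platelets and epidermis and Alox15 in eosinophils and some macrophages. In mouse skin TPA is the classical agent for studies of prostaglandins in inflammation and tumor promotion.

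All values are on the log2 scale of robust multiarray (RMA) intensities, so that a difference of 1 is a doubling, and each gene is led by its brightest probe set. Levels are compared between groups within 1 probe set and never between genes. A probe set was said to pass when its adjusted p was under 0.05 in limma (Benjamini-Hochberg adjustment over 36029 tested probe sets), and 15 of the 16 member probe sets were bright enough to be tested. The exception was the second Alox12 probe set, which lay between 3.06 and 3.98 on all arrays. The D6 gene (Ccbp2) was lower in D6-deficient skin on 2 of its 3 probe sets, without overlap on 1 of them (3.30 to 3.86 against 4.15 to 5.76), and by -0.07 (SE 0.11, adjusted p = 0.80) on the third. Basal keratinocyte markers were high on all arrays (mean of 6 genes 10.27 to 11.90). By their hybridization controls the arrays formed a set of 13 and a set of 17, and both held both genotypes. All 85 within-set values of the differences that passed had the sign of the whole, a check added after seeing the data. It looked only at the sign of differences that had passed on these same arrays, in part with 1 array against 1, so it could hardly fail. All D6-deficient day 6 arrays lay in the larger set. With the set as a covariate, the changes of Ptgs1 and Alox5ap to that day no longer passed. Precision is limited by 3 arrays per group, for which the smallest exact permutation p is 0.1, and the median SD within a group was 0.187.

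Of the 10 members, 7 had a promoter in the RefSeq table of GRCm38.p6, namely Ptgs1, Ptgs2, Ptges, Hpgd, Alox5, Alox12 and Alox12b. The promoters of the cyclooxygenase pair are shown because these isoenzymes moved in opposite directions after TPA. Each runs on the plus strand from 250 bases before to 30 bases after the start of the gene in that table. Capitals mark matches, on either strand, to the motifs searched.
Ptgs2, chr1:150099781-150100060: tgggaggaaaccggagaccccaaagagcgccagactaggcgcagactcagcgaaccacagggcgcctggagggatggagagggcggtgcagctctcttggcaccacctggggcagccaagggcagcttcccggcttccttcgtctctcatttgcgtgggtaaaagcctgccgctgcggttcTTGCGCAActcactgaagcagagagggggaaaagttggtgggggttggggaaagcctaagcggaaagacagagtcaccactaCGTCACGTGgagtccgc
Ptgs1, chr2:36230176-36230455: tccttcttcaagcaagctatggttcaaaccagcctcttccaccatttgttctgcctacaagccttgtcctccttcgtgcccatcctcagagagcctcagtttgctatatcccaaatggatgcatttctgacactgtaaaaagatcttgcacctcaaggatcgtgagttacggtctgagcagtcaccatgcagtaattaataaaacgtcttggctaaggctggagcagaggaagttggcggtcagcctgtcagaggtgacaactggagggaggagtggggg
In the Ptgs2 promoter the C/EBP palindrome TTGCGCAA began at position -69 from the start, and the core of the cAMP response element, TGACG, read from the minus strand as CGTCA, began 13 bases after the start and overlapped an E-box, CACGTG. Of 32851 promoters of 300 bases in the table, TTGCGCAA is held by 0.183%, TGACG by 20.8% and CACGTG by 7.15%. The phorbol ester response element (TGAGTCA or TGACTCA, in 5.2% of promoters), the full cAMP response element (TGACGTCA, in 1.79%), TATAAA (13.6%) and a NF-κB motif (8.46%) had no match there, and none of the motifs had a match in the Ptgs1 window. Among the other 5 promoters the only match was a TATAAA in Hpgd. The motifs were chosen with the sequences in view, and a match is a description of letters.

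Ptgs2, the inducible cyclooxygenase, had the largest rise of the members. In WT skin the 3 arrays read 5.98, 5.39 and 4.99 on day 0 and 6.65, 5.43 and 5.73 on day 1. They read 6.64, 8.25 and 6.15 on day 2, 8.54, 8.03 and 9.35 on day 4, and 5.0, 4.62 and 4.96 on day 6. WT arrays of day 4 thus lay above those of days 0, 1 and 6 without overlap, and day 2 was spread widely, with 1 high array. In D6-deficient skin the arrays read 6.30, 5.86 and 6.11 on day 0 and 5.08, 5.43 and 6.47 on day 1. They read 9.77, 9.70 and 8.61 on day 2, 10.98, 10.36 and 9.75 on day 4, and 5.10, 5.90 and 4.52 on day 6. All D6-deficient arrays of days 2 and 4 were above all D6-deficient arrays of the other days.

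The change of Ptgs2 from day 0 was 1.56 (SE 0.49, adjusted p = 0.019) on day 2 and 3.19 (adjusted p = 1.4e-05), a 9.11-fold rise, on day 4 in WT skin. In D6-deficient skin it was 3.27 (adjusted p = 1.0e-05) on day 2 and 4.28 (adjusted p = 1.8e-07), a 19.4-fold rise, on day 4. From day 4 to day 6 Ptgs2 fell by 3.78 in WT and by 5.19 in D6-deficient skin, and the day 6 level was -0.60 (adjusted p = 0.42) and -0.91 (adjusted p = 0.16) from day 0. Between the genotypes on day 2 all 3 D6-deficient arrays were above the highest WT array, by 2.35 on average (SE 0.49, adjusted p = 0.0039), a 5.10-fold difference. On day 4 they were again all higher, by 1.72, which did not pass (adjusted p = 0.12). The second probe set passed on both days, at 1.41 on day 2 (adjusted p = 0.016) and 2.26 on day 4 (adjusted p = 0.0013). When the day 0 difference was subtracted, the larger change of D6-deficient skin did not pass on either probe set (1.72 with adjusted p = 0.17 on day 2 for the brighter, 2.05 with adjusted p = 0.050 on day 4 for the other). The day 2 rise in WT skin did not pass without WT day 2 replicate 2, where it was 0.94, or without WT day 0 replicate 3. Its highest adjusted p over the alternative limma fits was 0.18. In the order of levels, D6-deficient day 4 (10.36) and day 2 (9.36), WT day 4 (8.64) and WT day 2 (7.01) stood at the top, and WT day 4 over WT day 2 was the only pair of neighbours that differed (adjusted p = 0.024).

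**Figure D1:**
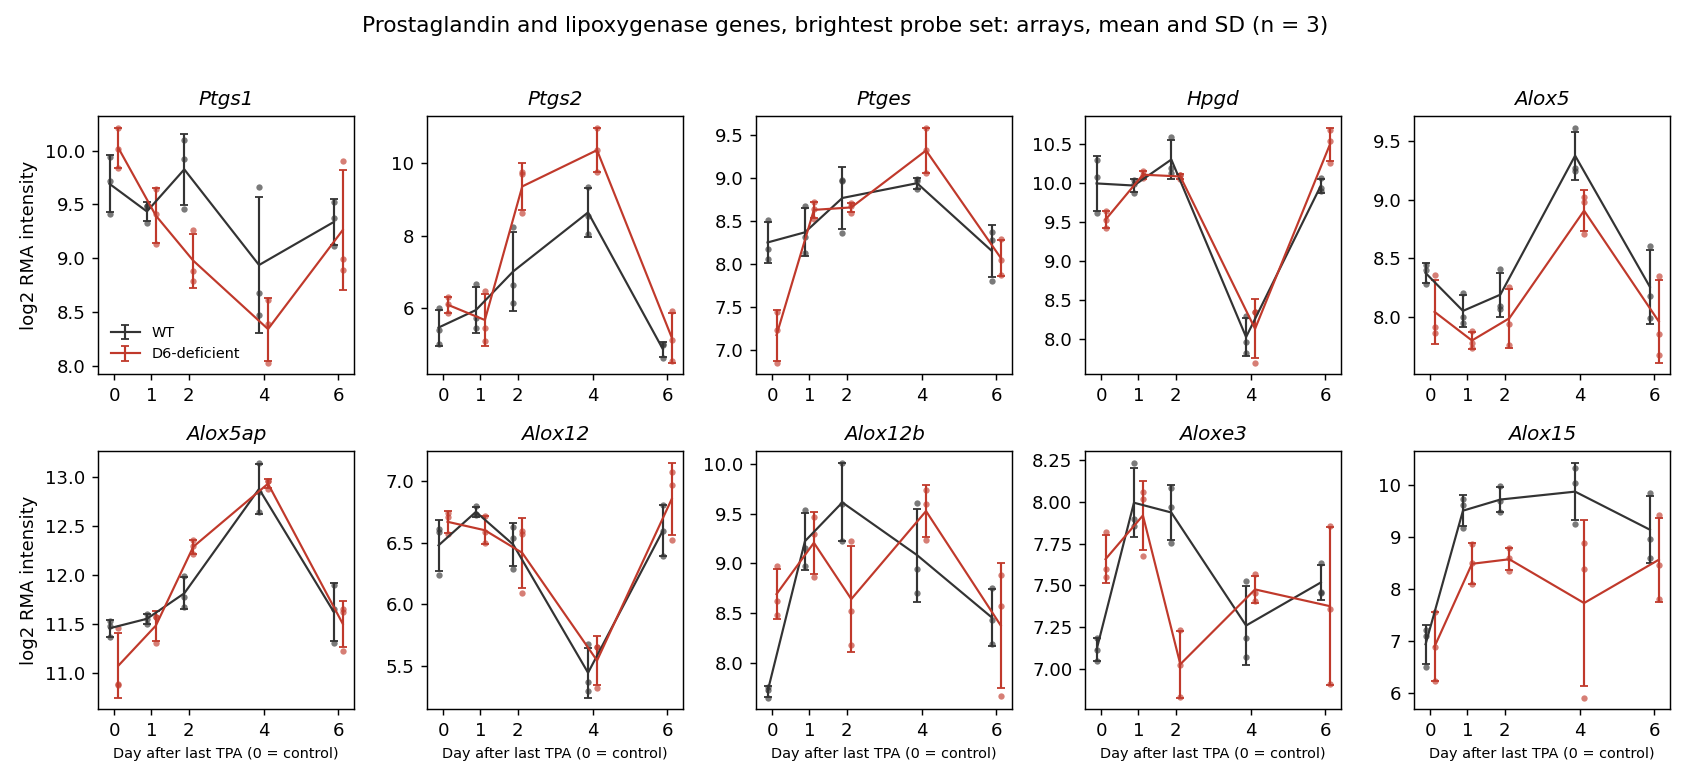
Log2 RMA intensity of the brightest probe set of each member against day (0 is the control), with points for arrays and lines for means with SD (n = 3) in WT (dark) and D6-deficient (red) skin. Ptgs2 reached 8.64 in WT and 10.36 in D6-deficient skin on day 4 and was back at 4.86 and 5.17 on day 6, while Hpgd and Alox12 dipped on day 4.

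Ptgs1, the constitutive cyclooxygenase, went the other way. In WT skin its arrays read 9.71, 9.41 and 9.94 on day 0 and 8.68, 9.66 and 8.47 on day 4, which overlap in 1 array. In D6-deficient skin they read 10.21, 9.84 and 10.02 on day 0, 9.26, 8.79 and 8.88 on day 2, and 8.03, 8.39 and 8.61 on day 4, with no overlap between these days. The fall in D6-deficient skin was -1.05 (SE 0.26, adjusted p = 0.0028) on day 2, -1.68 (adjusted p = 1.6e-05) on day 4 and -0.76 (adjusted p = 0.030) on day 6. WT skin fell on day 4 by 0.75 (adjusted p = 0.025), a change that was lost without WT day 0 replicate 1 or 3 or WT day 4 replicate 1 or 3 (-1.12 to -0.52 over all arrays left out, adjusted p up to 0.17). On the second probe set the change to day 2 was more negative in D6-deficient than in WT skin by -1.26 (SE 0.37, adjusted p = 0.044), and on the brighter one by -1.18 (adjusted p = 0.066). The probe sets correlated with r = 0.93 over the 30 arrays. On day 4 in D6-deficient skin, 4 of 6 basal keratinocyte genes and 4 of 5 sebaceous gland genes fell as well, beside 22.4% of all tested probe sets. Of the basal keratinocyte genes, 2 fell and 1 rose in WT skin on day 4. In D6-deficient skin 3 of them fell and 2 rose on day 2. Over the 30 arrays the means of the basal keratinocyte and sebaceous gland lists had r = 0.79 and 0.67 with Ptgs1. The part of these cells in the fall of Ptgs1 was not tested.

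Ptges, the inducible prostaglandin E synthase, differed between the genotypes before TPA. On day 0 the WT arrays read 8.17, 8.06 and 8.51 and the D6-deficient arrays 7.23, 7.43 and 6.85. All D6-deficient controls were thus below all WT controls, by -1.08 (SE 0.19, adjusted p = 0.0039). On day 4 the arrays read 8.98, 8.87 and 8.97 in WT and 9.05, 9.58 and 9.32 in D6-deficient skin, a difference of 0.38 that did not pass (adjusted p = 0.51). The change from day 0 in D6-deficient skin was 1.46, 1.49, 2.15 and 0.90 on days 1, 2, 4 and 6, and each passed (adjusted p between 2.8e-09 and 0.00078). In WT skin it was 0.52 (adjusted p = 0.043, up to 0.18 with 1 array left out or in another fit) on day 2 and 0.69 (adjusted p = 0.0048) on day 4. The change was larger in D6-deficient skin by 0.97 (SE 0.26, adjusted p = 0.030) on day 2 and by 1.46 (adjusted p = 0.013) on day 4, and the day 0 gap of 1.08 is contained in both. The other 2 probe sets of Ptges gave day 0 differences of -0.56 (adjusted p = 0.11) and -0.30 (adjusted p = 0.34), and neither passed for the change.

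Hpgd, which removes prostaglandins, fell on day 4 alone. Its WT arrays read 9.61, 10.29 and 10.07 on day 0, 7.82, 8.30 and 7.97 on day 4, and 9.90, 10.06 and 9.93 on day 6. Its D6-deficient arrays read 9.64, 9.42 and 9.53 on day 0, 7.70, 8.35 and 8.35 on day 4, and 10.67, 10.54 and 10.25 on day 6. Day 4 arrays of both genotypes were below every array of the other days. The change from day 0 to day 4 was -1.96 (SE 0.17, adjusted p = 4.2e-09) in WT and -1.40 (adjusted p = 5.0e-07) in D6-deficient skin, and the return from day 4 to day 6 was 1.94 and 2.35. In D6-deficient skin Hpgd was above day 0 on days 1, 2 and 6, by 0.58 (adjusted p = 0.0099), 0.55 (adjusted p = 0.012) and 0.96 (adjusted p = 0.00017). No difference between the genotypes passed on any day for either probe set. Day 4 was thus the day of the lowest mean of Hpgd and of the highest mean of Ptgs2 in each genotype.

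Among 6 tested differentiated keratinocyte markers, 4 were lower and 1 higher in WT skin on day 4. In D6-deficient skin 5 were lower and 0 higher. Of all tested probe sets, 21.8% fell and 17.3% rose in WT skin on that day, and 22.4% and 18.8% in D6-deficient skin. The mean of all 7 listed genes per array was 9.76 to 9.96 on WT day 0, 7.79 to 9.39 on WT day 4, 10.14 to 10.35 on D6-deficient day 0 and 6.18 to 7.83 on D6-deficient day 4. Its correlation with Hpgd over the 30 arrays was r = 0.89, with Alox12 0.80, and arrays of 1 group share their day and genotype. The 3 genes closest to Hpgd in pattern were D4Bwg0951e (r = 0.94), Omd (0.93) and Krt10 (0.92). Krt10 is a keratin of differentiating epidermis and itself in this list. The part of these cells in the fall of Hpgd and Alox12 was not tested.

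**Figure D2:**
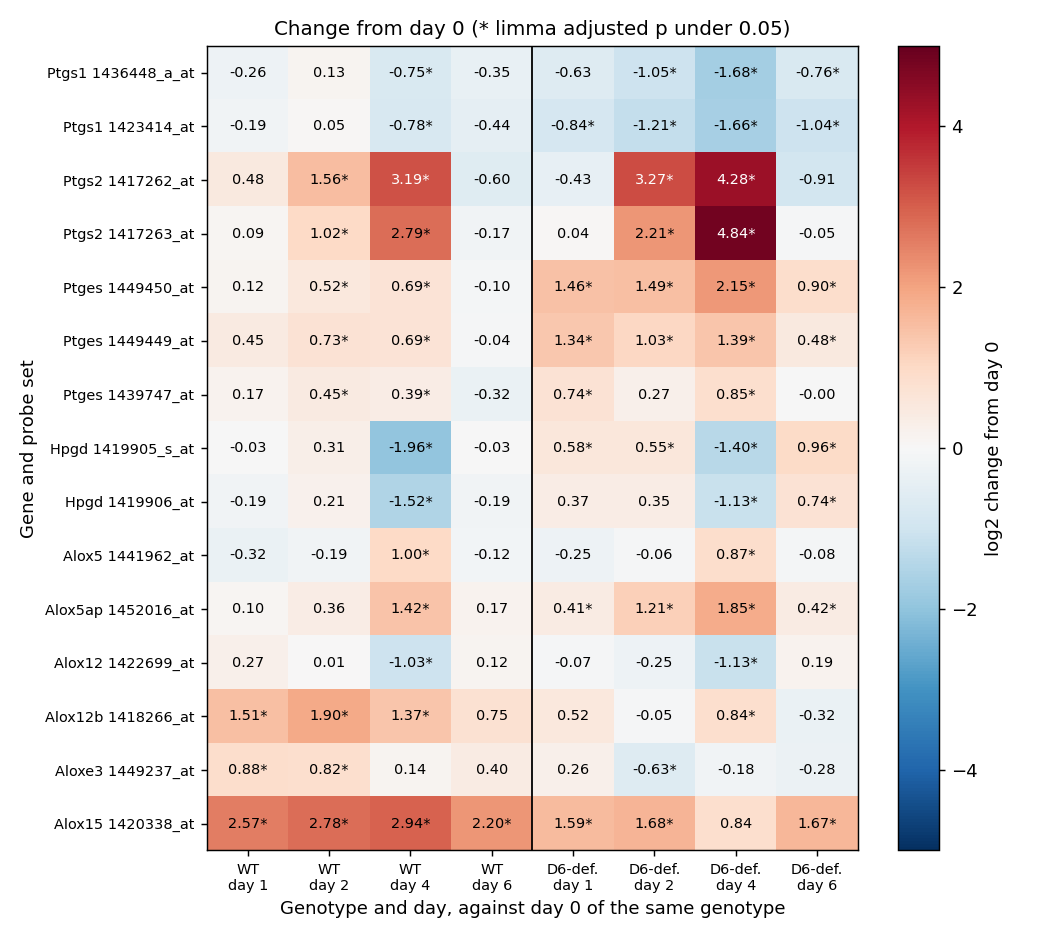
Log2 change from day 0 of the same genotype for the 15 tested member probe sets (rows) on days 1, 2, 4 and 6 (columns), with asterisks at a limma adjusted p under 0.05. The changes run from -1.96 for Hpgd on day 4 in WT skin to 4.84 for the second Ptgs2 probe set on day 4 in D6-deficient skin.

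Alox5, which starts leukotriene synthesis, rose on day 4 in both genotypes. The WT arrays read 8.40, 8.28 and 8.44 on day 0 and 9.27, 9.24 and 9.61 on day 4, a change of 1.00 (SE 0.18, adjusted p = 7.6e-05). The D6-deficient arrays read 7.91, 8.35 and 7.86 on day 0 and 8.98, 8.71 and 9.03 on day 4, a change of 0.87 (adjusted p = 0.00032). Day 4 lay above the other days without overlap in each genotype. On no single day did a difference between the genotypes pass, but over all days Alox5 was lower in D6-deficient skin by -0.31 (SE 0.08, adjusted p = 0.018).

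Alox5ap changed by more on day 4, and in D6-deficient skin it passed on every day after TPA. Its WT arrays read 11.48, 11.53 and 11.36 on day 0, 11.67, 11.99 and 11.78 on day 2, and 12.85, 12.64 and 13.14 on day 4. Its D6-deficient arrays read 10.88, 11.46 and 10.89 on day 0, 12.35, 12.21 and 12.30 on day 2, and 12.88, 12.96 and 12.96 on day 4. On day 2 the lowest D6-deficient array was above the highest WT array, but the difference of 0.47 did not pass (adjusted p = 0.093). The change from day 0 was 0.36 (adjusted p = 0.098) on day 2 and 1.42 (adjusted p = 1.7e-07) on day 4 in WT skin. In D6-deficient skin it was 1.21 (adjusted p = 1.7e-06) on day 2 and 1.85 (adjusted p = 1.9e-09) on day 4, with smaller changes on day 1 (0.41, adjusted p = 0.045) and day 6 (0.42, adjusted p = 0.041). The change to day 2 was larger in D6-deficient skin by 0.85 (SE 0.22, adjusted p = 0.022).

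Neutrophil markers rose after TPA as well, with a course partly unlike that of Ptgs2. The mean of 8 neutrophil genes on the arrays (the other listed ones, Ly6g and Retnlg, have no probe set here) ran from 5.67 to 6.42 in WT and from 7.43 to 9.28 in D6-deficient skin on day 2, and from 7.11 to 8.04 and 7.76 to 8.60 on day 4. In D6-deficient skin it was already 6.20 to 7.34 on day 1, against 5.13 to 5.40 on day 0. Ptgs2 was then at -0.43 from day 0. The neutrophil mean was higher on day 2 (8.40) than on day 4 (8.04), whereas Ptgs2 was highest on day 4. On D6-deficient day 2 replicates 1 to 3 read 7.43, 8.49 and 9.28 for neutrophil genes and 9.77, 9.70 and 8.61 for Ptgs2. On day 2, 6 of the 8 passed as higher in D6-deficient skin, with Ngp, a neutrophil granule protein, at 4.82 and Cxcr2, the neutrophil chemokine receptor, at 0.84. Of 8 monocyte and macrophage genes 3 were higher on that day, among them Cd14 at 1.62. Over the 30 arrays the neutrophil mean had r = 0.83 with Ptgs2 and 0.79 with Alox5ap, and the macrophage mean 0.78 and 0.86. The mean of 6 platelet genes had r = 0.805 with Ptgs2 and 0.95 with Alox5ap. The part of these cells and of platelets in the results for Ptgs2 and Alox5ap was not tested. Among the genes closest in pattern were Hdc (0.95), Trem1 (0.95) and Osm (0.94) for Ptgs2, Hcls1 (0.98) and Fxyd5 (0.98) for Alox5ap, and Mrc1 (0.94), Dab2 (0.90) and Il4ra (0.90) for Alox5, out of 31908 probe sets compared over the 30 arrays.

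Alox12, the platelet-type lipoxygenase, fell on day 4. WT arrays went from 6.24, 6.61 and 6.59 on day 0 to 5.67, 5.37 and 5.29 on day 4, and D6-deficient arrays from 6.71, 6.74 and 6.57 to 5.66, 5.32 and 5.66. Day 4 was below every array of the other days, by -1.03 (SE 0.16, adjusted p = 1.3e-05) from day 0 in WT and -1.13 (adjusted p = 3.4e-06) in D6-deficient skin. The fall was opposite in sign to the day 4 values of platelet markers, of which Pf4, a platelet chemokine, rose by 1.45 in WT and 1.99 in D6-deficient skin, while 4 and 3 of the 6 platelet genes did not pass. The dim second probe set of Alox12 followed it loosely (r = 0.34).

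The epidermal pair, Alox12b and Aloxe3, are neighbours on chromosome 11 with no gene between them, and with Alox8 next to Alox12b. Both rose on days 1 and 2 in WT skin, whereas no rise on these days passed for D6-deficient mice. The genotypes nevertheless had close means on day 1, for Alox12b 9.22 (WT) and 9.21 (D6-deficient), for Aloxe3 7.99 and 7.92. The D6-deficient changes to day 1 were positive, 0.52 for Alox12b and 0.26 for Aloxe3. They started from controls higher than WT by 0.98 and 0.54, differences that did not pass. For day 1 the difference in change passed for no member. Alox12b in WT read 7.73, 7.65 and 7.75 on day 0, 9.54, 9.16 and 8.98 on day 1, and 10.01, 9.60 and 9.23 on day 2. In D6-deficient skin it read 8.97, 8.62 and 8.48 on day 0, 9.47, 8.86 and 9.30 on day 1, and 9.22, 8.18 and 8.52 on day 2. The WT controls were thus below all other WT arrays, and the D6-deficient controls were above the WT controls. The change in WT skin was 1.51 (SE 0.29, adjusted p = 0.00048) on day 1, 1.90 (adjusted p = 3.2e-05) on day 2 and 1.37 (adjusted p = 0.00053) on day 4. In D6-deficient skin it was 0.52 (adjusted p = 0.17), -0.05 (adjusted p = 0.91) and 0.84 (adjusted p = 0.023). The difference between these changes on day 2 was -1.95 (SE 0.41, adjusted p = 0.0046). It combined a day 2 difference of -0.97 (adjusted p = 0.055) and a day 0 difference of 0.98 in the opposite direction (adjusted p = 0.085), neither of which passed.

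Aloxe3 in WT read 7.18, 7.11 and 7.05 on day 0, 8.23, 7.90 and 7.85 on day 1, and 8.08, 7.97 and 7.75 on day 2. In D6-deficient skin it read 7.82, 7.60 and 7.55 on day 0, 8.02, 7.68 and 8.06 on day 1, and 7.23, 6.83 and 7.02 on day 2. On day 2 all D6-deficient arrays were below all WT arrays, by -0.91 (SE 0.17, adjusted p = 0.0018). The change from day 0 to day 2 was 0.82 (adjusted p = 0.00098) in WT and -0.63 (adjusted p = 0.0054) in D6-deficient skin, and the difference between them was -1.45 (SE 0.24, adjusted p = 0.00077). By day 4 the genotypes were at 7.26 and 7.48, a difference that did not pass (adjusted p = 0.77). The pair correlated with r = 0.70 over the 30 arrays.

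The partners of these lipoxygenases in barrier lipid synthesis were described by a list of 9 genes. On day 2, 7 rose and none fell in WT skin, while 4 rose and 1 fell in D6-deficient skin, where 17.5% of all tested probe sets rose and 20.6% fell (11% and 15% in WT skin). Pnpla1, which attaches linoleate to the ceramide, rose by 2.15 for WT and 0.70 for D6-deficient skin, and Cers3, a ceramide synthase, by 2.24 and 0.97. Tgm1, the transglutaminase of the cornified envelope, rose by 2.09 and 0.89 on day 2 and by 2.29 and 2.12 on day 4. Abca12, the lipid transporter of lamellar granules, rose by 1.77 in WT skin and was at -0.26 in D6-deficient skin. Nipal4 (-0.75) and Pnpla1 (-0.74) were lower in D6-deficient skin on day 2 and higher on day 0 (0.93 and 0.71). Elovl4, which lengthens the fatty acids, fell by 1.47 in D6-deficient skin and was at -0.15 in WT skin. The change to day 2 differed between the genotypes for 8 of the 9, with only Cyp4f39 not passing, and each of the 8 was more negative in D6-deficient skin, against 2.62% of all tested probe sets. This contrast contains the day 0 difference with its sign turned. On day 2 itself, 4 of the 57 genes of the whole pathway list were lower and 2 higher in D6-deficient skin. Of all tested probe sets, 4.45% differed in either direction on that day. Of the differentiated keratinocyte markers, Ivl was lower in D6-deficient skin on day 2 (-1.92) and the other 5 tested did not pass. The mean of all 7 listed genes nevertheless ran from 11.11 to 11.33 in WT and from 10.42 to 10.67 in D6-deficient skin on that day, without overlap. On day 0 it ran from 9.76 to 9.96 and from 10.14 to 10.35. Between the genotypes the change of the 6 tested genes to day 2 had a median difference of -1.22, and 1 passed. The part of these cells in the results for the barrier genes was not tested.

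**Figure D3:**
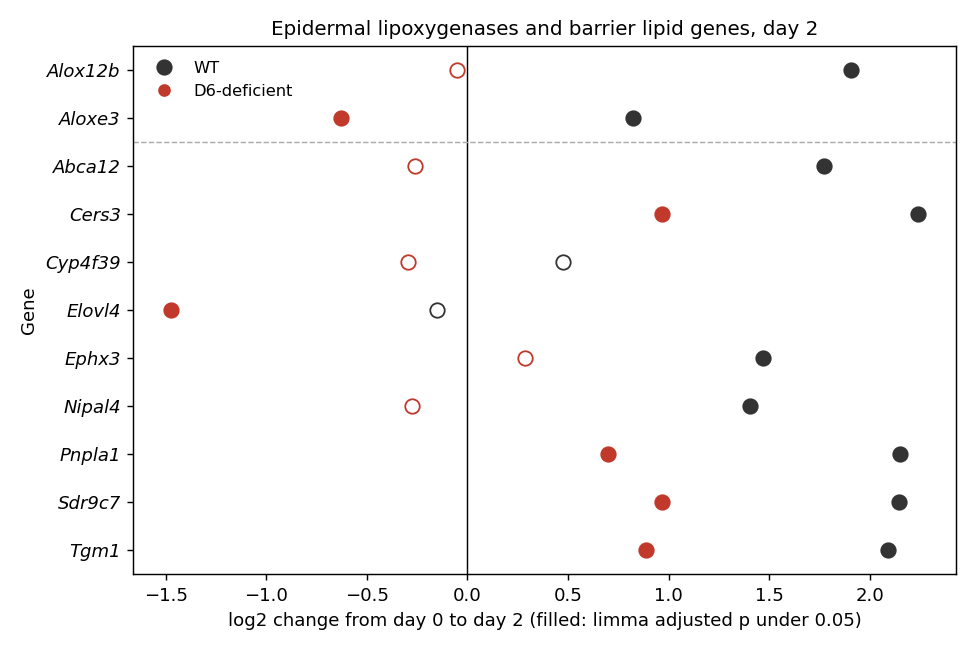
Log2 change from day 0 to day 2 for Alox12b, Aloxe3 and the 9 listed genes of barrier lipid synthesis in WT (dark) and D6-deficient (red) skin, filled where the limma adjusted p is under 0.05. Each WT point lies to the right of its D6-deficient point, for example 1.90 against -0.05 for Alox12b.

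Alox15 rose in WT skin and stayed high. Its WT arrays read 6.51, 7.10 and 7.22 on day 0, 9.18, 9.62 and 9.74 on day 1, 9.49, 9.70 and 9.99 on day 2, 10.33, 9.26 and 10.05 on day 4, and 9.86, 8.61 and 8.98 on day 6. Every WT array after TPA was above every control, with changes of 2.57, 2.78, 2.94 and 2.20 (SE 0.52, adjusted p between 8.7e-05 and 0.0037), and it was the only member probe set that still passed on day 6 in WT skin. Its D6-deficient arrays read 6.88, 7.57 and 6.24 on day 0, 8.50, 8.09 and 8.88 on day 1, and 8.60, 8.79 and 8.35 on day 2. They read 5.92, 8.40 and 8.90 on day 4 and 8.47, 7.82 and 9.42 on day 6. The changes there were 1.59 (adjusted p = 0.019), 1.68 (adjusted p = 0.013), 0.84 (adjusted p = 0.21) and 1.67 (adjusted p = 0.017). Without D6-deficient day 0 replicate 3 none of the 3 that passed did so (adjusted p up to 0.10). Over all days Alox15 was lower in D6-deficient skin by -0.99 (SE 0.23, adjusted p = 0.011), and the day 4 difference of -2.14 did not pass (adjusted p = 0.061).

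Eosinophil markers moved with Alox15. The mean of 5 eosinophil genes ran from 3.67 to 4.09 on WT day 0 and from 4.90 to 5.60 on WT day 4. In D6-deficient skin it ran from 3.81 to 3.99 on day 0 and from 3.69 to 4.73 on day 4, and the D6-deficient day 4 array with the lowest Alox15 (5.92) was also the lowest in eosinophil markers (3.69). On day 2 the list overlapped between the genotypes (4.89 to 5.59 in WT, 4.76 to 5.37 in D6-deficient skin). Alox15 did not overlap on that day (9.49 to 9.99 against 8.35 to 8.79), though its difference of -1.15 did not pass. The correlation of the list mean with Alox15 over the 30 arrays was r = 0.92. The genes closest to Alox15 were Siglec5 (0.96), the file's symbol for the eosinophil lectin Siglecf, F5 (0.93) and the eotaxin receptor Ccr3 (0.92). Siglecf and Ccr3 are themselves in the eosinophil list. Epx, the eosinophil peroxidase, was too dim to be tested (mean 3.36), and between the genotypes on the same day none of the 4 tested eosinophil genes passed. Over all days 2 of the 4, Ccr3 at -0.64 (adjusted p = 0.0056) and Ear1 at -0.51 (adjusted p = 0.0098), were lower in D6-deficient skin, as Alox15 was, and the median of the 4 was -0.58. The part of eosinophils in the result for Alox15 was not tested.

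**Figure D4:**
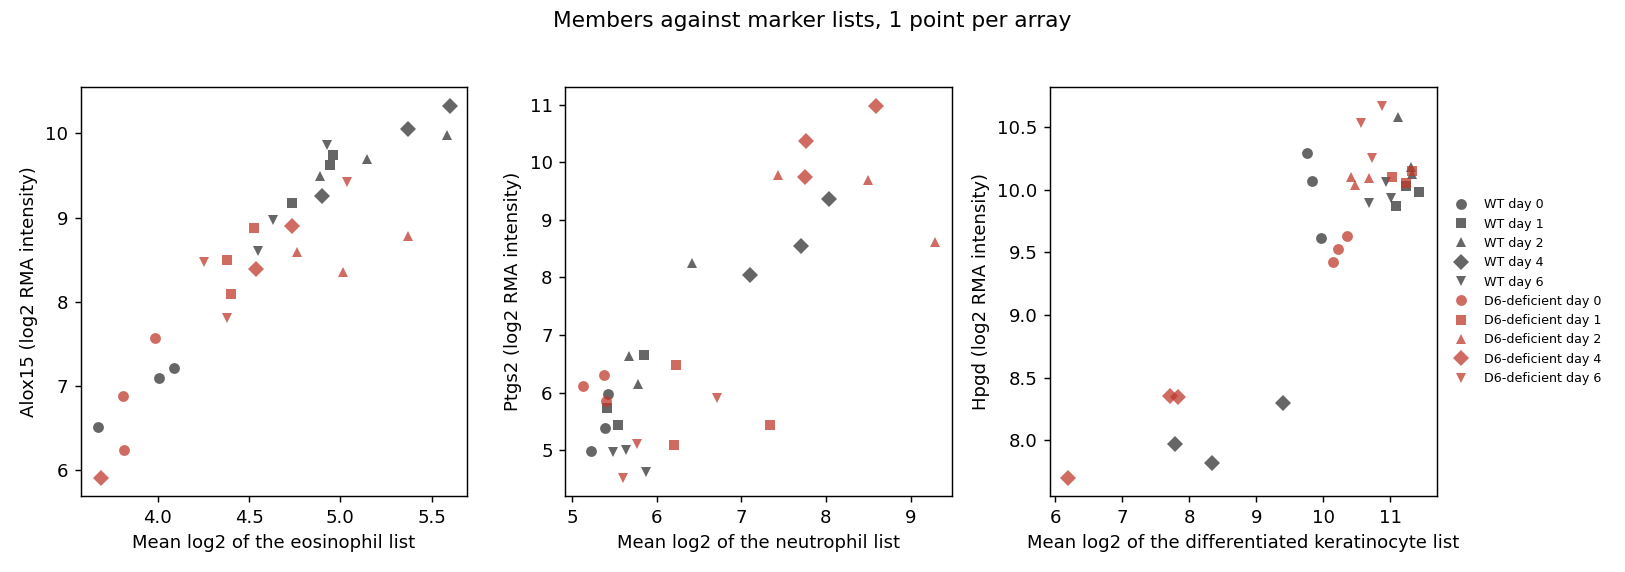
Log2 intensity of a member on each of the 30 arrays against the mean log2 intensity of a marker list, for Alox15 and eosinophils, Ptgs2 and neutrophils, and Hpgd and differentiated keratinocytes; color is genotype and shape is day. The D6-deficient day 4 array at 5.92 for Alox15 sits at the low end of the eosinophil list, and all day 4 arrays sit at the low end of the keratinocyte list.

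Counted over the 15 tested member probe sets, 3 rose on day 1, 8 on day 2, 9 on day 4 and 1 on day 6 in WT skin, where 11.4%, 11%, 17.3% and 10.2% of all tested probe sets rose. On day 4, 5 fell (21.8% of all), and on the other days none did (12.7%, 15% and 11.9%). In D6-deficient skin 6, 7, 8 and 6 rose on days 1, 2, 4 and 6 (18.2%, 17.5%, 18.8% and 16%), and 1, 3, 5 and 2 fell (18.1%, 20.6%, 22.4% and 15.7%). The median change of the members was largest on day 4 (0.69 for WT, 0.84 for D6-deficient skin), beside 0.01 over all tested probe sets for both. Several of these probe sets belong to 1 gene, and the days of a genotype share their control arrays.

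Between the genotypes on the same day, 1 member probe set differed on day 0 (1.57% of all tested), 3 on day 2 (4.45%) and 1 on day 4 (0.513%). These were Ptges, both Ptgs2 probe sets with Aloxe3, and the second Ptgs2 probe set. On days 1 and 6 limma passed 0 members (0.0555% and 0.125% of all), and 0 and 2 had an unadjusted p under 0.05 (8.01% and 8.37% of all). For the change from day 0, 5 differed on day 2 (5.4%) and 1 on day 4 (0.608%), and 0 on days 1 and 6 (0.0194% and 0.025%), with 7 and 5 at an unadjusted p under 0.05 (9.7% and 8.01% of all). Averaged over all days, 4 member probe sets differed (5.52%), both of Ptgs2 upward and those of Alox5 and Alox15 downward in D6-deficient skin.

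**Figure D5:**
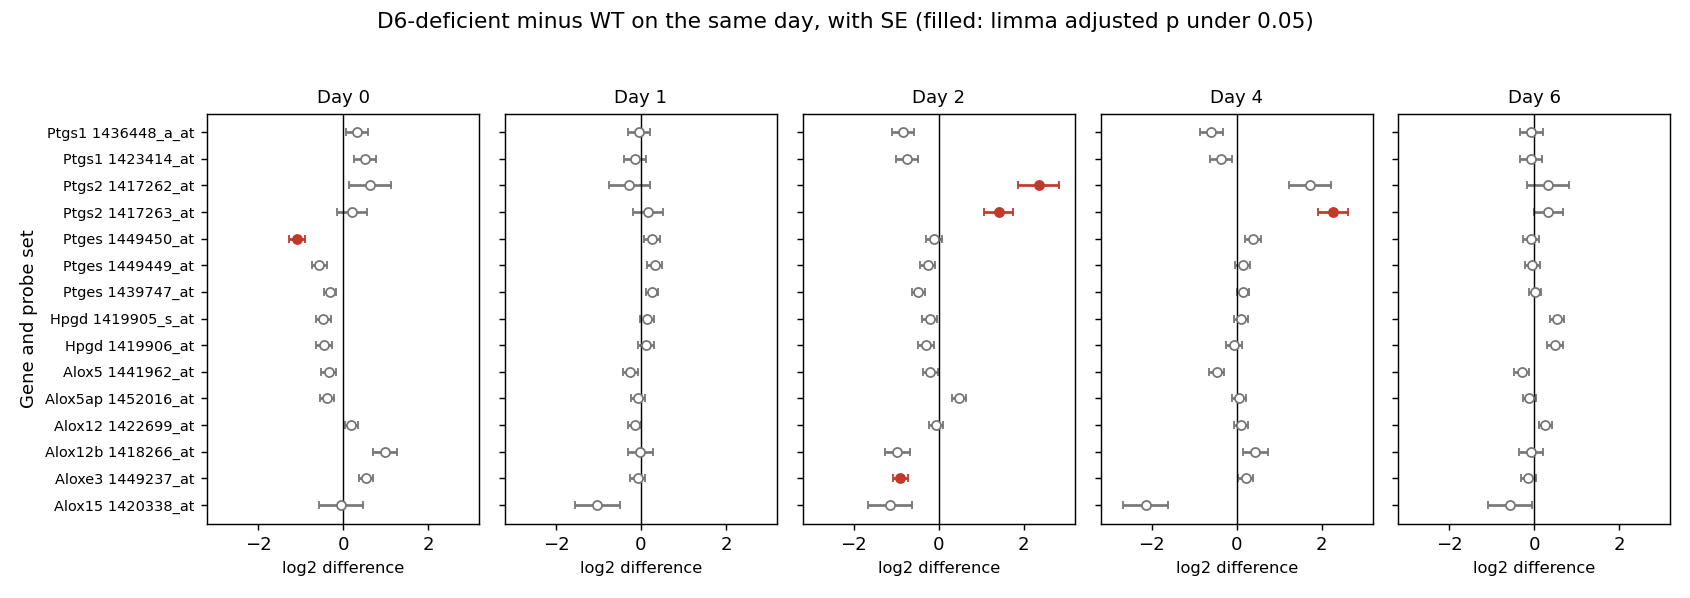
Log2 difference D6-deficient minus WT with its SE for the 15 tested member probe sets on each day, filled where the limma adjusted p is under 0.05. The filled points are Ptges on day 0 (-1.08), Ptgs2 on day 2 (2.35 and 1.41) and day 4 (2.26), and Aloxe3 on day 2 (-0.91).

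The remaining genes of the pathway were read from a list of 57 genes on the arrays. In WT skin 20, 19, 19 and 10 of them rose on days 1, 2, 4 and 6 and 8, 4, 8 and 8 fell, and in D6-deficient skin 14, 15, 18 and 7 rose and 10, 10, 14 and 8 fell. Of all tested probe sets, 11.4%, 11%, 17.3% and 10.2% rose and 12.7%, 15%, 21.8% and 11.9% fell in WT skin. In D6-deficient skin 18.2%, 17.5%, 18.8% and 16% rose and 18.1%, 20.6%, 22.4% and 15.7% fell. The phospholipases A2, which release arachidonic acid or hydrolyse related lipids, included the largest rise. Pla2g4b rose by 5.14 in WT and 3.87 in D6-deficient skin on day 2, and Pla2g4d by 2.95 and 2.88. Pla2g7, which inactivates platelet-activating factor, rose by 1.47 and 2.93 and was higher in D6-deficient skin on day 2 by 1.03. Pla2g2f, an epidermal secreted phospholipase, was lower there by -1.20.

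Of the other lipoxygenases, Alox8, the phorbol ester-inducible enzyme of mouse epidermis, rose by 5.02 in WT skin on day 2, where the value in D6-deficient skin was 1.74 and did not pass, and the difference between the genotypes of -2.43 did not pass either. On day 4 it rose by 4.73 and 4.88. Alox12e, an epidermal lipoxygenase next to Alox15 on chromosome 11, fell by 1.90 in WT and 4.02 in D6-deficient skin on day 4. Thus on day 4 Alox12 and Alox12e fell while Alox8 rose in both genotypes.

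Among prostanoid synthases, Ptgds, a prostaglandin D synthase, rose on day 1 by 1.02 for WT and 2.11 for D6-deficient skin, and Ptgis, the prostacyclin synthase, fell by 1.29 and 1.00. Tbxas1, the thromboxane synthase, fell by 0.45 on day 4 in D6-deficient skin. Of the 5 listed genes of uptake and breakdown, 3 fell in each genotype on day 4, the day of the fall of Hpgd. Ptgr3, a prostaglandin reductase, fell by 1.00 in WT and 0.78 in D6-deficient skin. Ptgr1, another reductase, fell by 1.16 in D6-deficient skin and was at -0.33 in WT skin, and Abcc4, an exporter of prostaglandins, fell by 0.63 and 0.84. Slco2a1, the prostaglandin transporter, rose by 0.86 in D6-deficient skin and was at 0.32 in WT skin.

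Of the receptors, Ptger3, a receptor of prostaglandin E, fell by 2.72 in WT and 2.11 in D6-deficient skin on day 4. Ptger2 fell by 0.72 on day 1 in D6-deficient skin and Ptgfr rose by 0.71 on day 4. On the leukotriene side, Ltb4r1, the leukotriene B receptor of leukocytes, rose by 2.39 and 2.33 on day 4, and Ltb4r2 rose by 1.63 and 1.18 on day 2. Fpr2, a receptor for lipoxins and formyl peptides on neutrophils, rose by 4.63 and 4.86 on day 4. On day 2 it was at 1.02 in WT skin and had risen by 4.15 in D6-deficient skin, a difference of 3.24 (adjusted p = 1.0e-05). Ltc4s, which makes leukotriene C, rose by 1.69 in D6-deficient skin on day 4, where it was at 0.31 in WT skin. Dpep1, which trims leukotriene D, fell by 1.52 and 1.10. Mgst2, a transferase of the same family as Ltc4s, rose on day 2 by 1.42 and 1.62 and fell on day 4 by 1.17 and 0.97. Between the genotypes, 0 of the 57 listed genes differed on day 1 and 0 on day 4. The change from day 0 differed for 0 of them on day 1. On day 4 it was more negative in D6-deficient skin for 2 and more positive for 0.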

How the data were processed

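Total RNA of whole back skin was hybridized to 30 Affymetrix mouse genome arrays, 1 per mouse. The authors summarized the probes by robust multiarray analysis in GeneSpring GX and deposited linear intensity values, of which the log2 was taken here; the genome build is not given in the sources used here. Another deposited file, which lists the samples without values, was not used, and base-line-transformed values were not used here. Of 45037 probe sets (64 controls left out), the 20% with the lowest mean were left out and 36029 tested. limma 3.58.1 (lmFit and eBayes, R 4.3.3) estimated 1 mean per group from all arrays, with Benjamini-Hochberg adjustment over all tested probe sets of a contrast, and the script was tested on simulated data. Python 3.11.15 and matplotlib 3.10.9 were used otherwise.

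The members and gene lists were chosen with earlier results of these data known. Every member probe set is reported, led by the brightest. Of a list of 58 pathway genes, 57 were found, 3 by an older symbol, and the 3 largest changes of each role and any gene differing over 2-fold between the genotypes on a day were named, and the other named genes of the lists were chosen after their values were seen. Of 83 marker genes in 13 lists, 79 were found and 77 tested. Patterns closest to a member were ranked by Pearson correlation over 30 arrays, and 1 gene that falls under this rule is not reported here. Replicate numbers did not pair the arrays (135 same-number pairs of deviations, median r = -0.01, 31 over 0.1). RefSeq promoters carry the build GRCm38.p6. Alternatives covered the fold rule, filters, scaling, the arrays fitted, array weights, blocks, the methods' t-test and each array left out.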

Additional observations from a re-analysis of the deposited data

Results flagged for a closer look

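For 5 members the change from day 0 differed between the genotypes by limma's test of the difference itself (D6-deficient minus WT, log2, adjusted p under 0.05). On day 2 the values were -1.26 for Ptgs1 on its second probe set, 0.97 for Ptges, 0.85 for Alox5ap, -1.95 for Alox12b and -1.45 for Aloxe3. On day 4 the value was 1.46 for Ptges. Each of these contrasts contains the day 0 difference with its sign turned, which was -1.08 for Ptges and passed on its own, and was 0.51, -0.38, 0.98 and 0.54 for Ptgs1 (second probe set), Alox5ap, Alox12b and Aloxe3, which did not.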

How the results depend on the processing

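Over at least 1 day, 15 member probe sets changed in WT and 15 in D6-deficient skin, 4 differed between the genotypes on the same day and 5 in their change from day 0, beside 51.6%, 62.5%, 6.11% and 5.63% of all 36029 tested probe sets. With a change of over 3-fold required as well, these counts were 5, 7, 2 and 1, beside 4.79%, 6.48%, 0.73% and 1.2% of all. With only the arrays of the contrast fitted, 8 differed between the genotypes, with array weights 10 and 9 in their change, and with the hybridization-control set as a covariate 7. The methods' t-test gave 5, 7, 2 and 2 at its threshold and, after Benjamini-Hochberg adjustment, 0 between the genotypes and 3 for the change. Leaving out 1 array gave 13 to 15 in WT, 13 to 15 in D6-deficient skin, 4 to 9 between the genotypes (9 without D6-deficient day 6 replicate 3) and 2 to 8 for the change (2 without D6-deficient day 0 replicate 3, 8 without D6-deficient day 6 replicate 3 or WT day 2 replicate 2). With the replicate block the counts were 15, 15, 6 and 5, and the replicate numbers did not pair the arrays. Of 50 results that passed for the brightest probe sets, 37 passed in every alternative limma fit, including those with 1 array left out. The other 13 were lost in 1 or more of these fits, with the direction kept. The fold rule and the methods' t-test were not part of this count. The change of Ptges to day 2 had an adjusted p up to 0.39 and that of Alox5ap up to 0.074, and the change of Ptges to day 4 reached 0.050 without D6-deficient day 0 replicate 3. Leaving out 1 array of either group also ended, for some arrays, the calls of Ptgs1 and Alox5ap on day 6 in D6-deficient skin. The same held there for Alox5ap on day 1 and Alox12b on day 4. Over the alternative limma fits the adjusted p of these calls reached 0.16, 0.18, 0.19 and 0.088 in this order. The causes were not tested.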

Other observations

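Of the marker lists that belong to no member, the skeletal muscle list had all 5 of its genes lower than on day 0 on each day after TPA in both genotypes. On no single day did 1 of them differ between the genotypes, but over all days all 5 were lower in D6-deficient skin, with a median difference of -0.47. On day 4, 2 of 8 mast cell genes were higher and 2 lower in WT skin, and 2 higher and 0 lower in D6-deficient skin. In WT and D6-deficient skin, 1 and 1 of 6 T cell genes were higher, 1 and 1 of 6 fibroblast genes were higher and 2 and 3 lower, 0 and 2 of 5 endothelial genes were higher and 3 and 1 lower, and 2 and 0 of 4 adipocyte genes were lower. Of these lists none held a gene that differed between the genotypes on a single day. Over all days 2 of the 8 mast cell genes, Tpsab1 (0.78) and Tpsb2 (0.33), were higher in D6-deficient skin, and no T cell, fibroblast, endothelial or adipocyte gene passed.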
